A study of Mus musculus with 10 samples.

Results

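The collagen genes of the mouse were followed across 4 sorted cell populations made from differentiating mouse embryonic stem cells (mESCs). The members were the rows of the count tables whose Ensembl identifier belongs to a GENCODE M21 protein-coding gene with a collagen symbol (Col, a type number, a, a chain number). That gave 44 of the 38924 genes counted, and all 44 were present in every table. By type they were 11 fibrillar collagens, 6 chains of the type IV basement membrane network, 9 FACITs (collagens that sit on the surface of fibrils), 7 beaded filament collagens and relatives, 4 transmembrane collagens, 3 short-chain collagens, 2 multiplexins, the anchoring fibril collagen Col7a1 and Col26a1, which was in no other class.

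All cells came from 1 mESC line, in which a truncated human CD4 (hCD4) is expressed from the Foxa2 locus, so that hCD4 on the surface reports Foxa2. Cardiac mesoderm (CM) was sorted at day 5 from cardiac cultures given VEGF, BMP4 and Activin A at 8 ng/ml as Kdr+Pdgfra+ cells, and split by hCD4 into Foxa2+ CM (3 samples) and Foxa2- CM (3 samples). Haematopoietic mesoderm (2 samples), labelled as high for Flk1, another name of Kdr, came from the same cardiac cultures. Endoderm (2 samples) was hCD4+ and came from other cultures, given Activin A alone at 75 ng/ml, so that cell type and culture cannot be told apart in its comparisons. The labels do not say that replicates were separate cultures, and p-values therefore measure the spread between these samples, which may be technical.

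Collagens are secreted or membrane-bound proteins built of 3 alpha chains wound into a triple helix. Fibrillar collagens are cleaved outside the cell and pack into the fibrils of connective tissue and cartilage, whereas type IV chains keep their ends and join into the sheet-like network of basement membranes, on which epithelia and endothelia rest. A type IV molecule is made either of Col4a1 and Col4a2 chains, the form found in almost all basement membranes, or of Col4a3, Col4a4 and Col4a5, or of Col4a5 and Col4a6. At gastrulation cells that leave the epiblast cross a basement membrane, while most fibrillar collagen of the heart is laid down later by fibroblasts.

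Between 10926284 and 17470126 reads were counted on genes in each sample, and collagen genes took 0.0797% and 0.1458% of them in endoderm, 0.157% to 0.2201% in the CM samples, and 0.1834% and 0.2067% in haematopoietic mesoderm. Levels are given as CPM (counts scaled to the same library total), and between genes only as CPM per kilobase of exon. Foxa2 itself was at 20, 16.0 and 3.5 CPM in Foxa2+ CM, at 2.54, 0.873 and 0.903 CPM in Foxa2- CM, 186 and 183 CPM in endoderm, and 0.69 and 0.788 CPM in haematopoietic mesoderm. Foxa2+ CM 3 was thus the lowest of its group. Of 10 haemato-endothelial markers, the summed level was 406, 416 and 513 CPM in Foxa2+ CM, at 295, 306 and 533 CPM in Foxa2- CM, 47.4 and 94.3 CPM in endoderm and 1400 and 1750 CPM in haematopoietic mesoderm, so the CM samples numbered 3 were the highest of their groups. In endoderm 9 endoderm markers summed to 1380 and 1510 CPM against 172 to 424 CPM elsewhere. The same 2 samples carried the node genes Chrd (251 and 198 CPM) and Foxj1 (67.3 and 44.8 CPM), with Chrd between 2.06 and 3.51 CPM in all other samples. The whole list of 7 node and notochord markers, which also holds Foxa2, summed to 687 and 564 CPM in endoderm. It summed to 217 CPM in Haematopoietic mesoderm 1, mostly from members other than Chrd and Foxa2, and to 84.9 to 143 CPM in the rest. The list as a whole thus set endoderm apart less than Chrd did. The 7 fibroblast and smooth muscle markers summed to 44.4 to 51.9 CPM in Foxa2+ CM and to between 64.5 and 73.5 CPM in Foxa2- CM, 57.9 and 72.6 CPM in endoderm, and 28 and 60.9 CPM in haematopoietic mesoderm, so that every Foxa2- CM sample was above every Foxa2+ CM sample. Of these, Dcn, Lum and Postn did not exceed 0.745 CPM in any sample, and the sums came from Tagln, Cnn1, Thy1 and Acta2, whose part in the collagen differences was not tested. The 6 undifferentiated mESC markers summed to 60.5 to 72.2 CPM in Foxa2+ CM and 83.4 to 121 CPM in Foxa2- CM. In endoderm they summed to 291 and 282 CPM, and in haematopoietic mesoderm to 127 and 38.7 CPM. The 8 cardiac mesoderm markers summed to 1050 to 1220 CPM in Foxa2+ CM and 1290 to 1430 CPM in Foxa2- CM. Both lists thus also parted the CM groups. The cardiac markers summed to 131 and 219 CPM in endoderm and 744 and 941 CPM in haematopoietic mesoderm. Visceral and parietal endoderm markers (8 genes) summed to 200 and 241 CPM in haematopoietic mesoderm, 88.3 and 101 CPM in the CM samples numbered 3, and 24.0 to 54.3 CPM in all other samples. Sox7, which endothelial cells also express, made up 177 and 213 CPM of the former sums, and Ttr, Afp and Apoa1 did not exceed 1.86 CPM in any sample. Paraxial mesoderm and sclerotome markers (6 genes) summed to 62.6 to 77.7 CPM in Foxa2+ CM and 64.3 to 71.0 CPM in Foxa2- CM. Their sums were 13.8 and 20.2 CPM in endoderm and 23.6 and 21.2 CPM in haematopoietic mesoderm. The part of these lists in the collagen differences was not tested. In sorted bulk samples, fewer cells of a type and less RNA per cell cannot be told apart.

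Per kilobase of exon, Col4a1 was the highest collagen gene in 10 of 10 samples and Col4a2 the next in 9 of 10. The pair made up 38.7% to 59.6% of the summed collagen level per exonic kilobase. All type IV chains together made up 62.4% to 66.6% in Foxa2+ CM, 51.1% to 57.4% in Foxa2- CM, 41.8% and 45.8% in endoderm, and 60.3% and 68.4% in haematopoietic mesoderm. The fibrillar collagens made up 10.7% to 15.3% in Foxa2+ CM, 18.4% to 23.9% in Foxa2- CM, 15.5% and 17.9% in endoderm, and 7.84% and 9.03% in haematopoietic mesoderm. The multiplexins exceeded them in haematopoietic mesoderm (14.2% and 14.8%) and in Endoderm 1 (16.4%). These shares were not tested. Scaling by the longest transcript gave 37.4% to 64.2% for type IV over all samples and 9.33% to 25.5% for the fibrillar collagens.

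**Figure D1:**
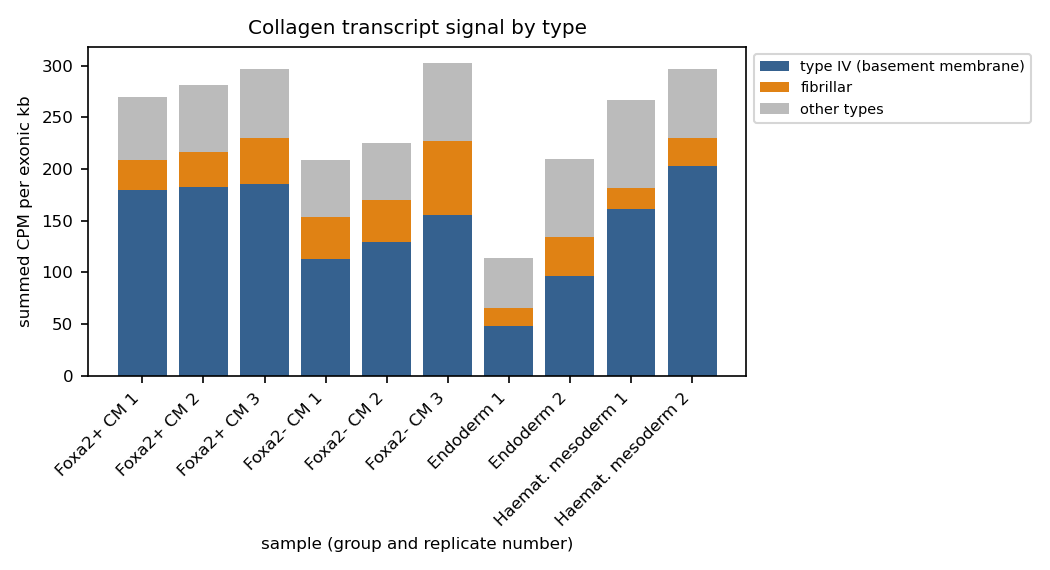
Stacked bars show, for each of the 10 samples (x axis), the summed level of collagen genes in CPM per exonic kilobase (y axis), divided into type IV, fibrillar and other types. Type IV chains were the tallest segment in 9 of 10 samples, and the whole bar was lowest in Endoderm 1, at 114.

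Of the 44 genes, 29 reached an average of at least 50 counts in 1 or more groups and 15 did not. Low in all groups were Col3a1, the type III chain of soft connective tissue, with at most 5 counts in any sample, and Col10a1, the collagen of hypertrophic cartilage, with at most 4. Col4a3 (at most 7 counts) and Col4a4 (at most 3), the partner chains of the kidney type of basement membrane, Col8a1 (at most 1) and Col15a1 (at most 8) were also near the floor, which is 3 counts or 0.172 to 0.275 CPM. Those 6 genes, with Col28a1, Col6a4 and Col6a6, were too low to test.

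**Figure D2:**
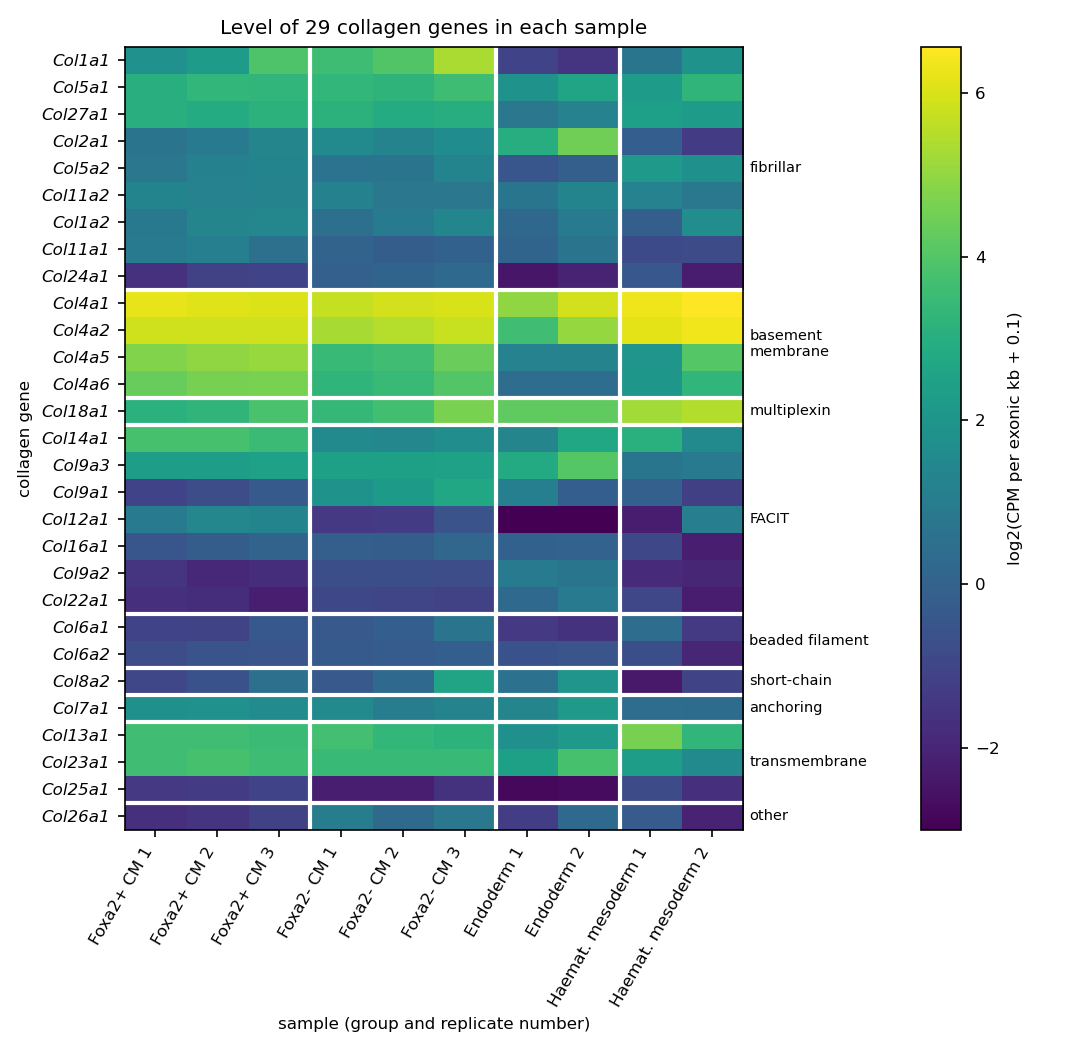
Heat map of the 29 collagen genes with an average of at least 50 counts in a group (rows, by type) in the 10 samples (columns), coloured by log2 of CPM per exonic kilobase plus 0.1. The Col4a1 and Col4a2 rows are bright in every column, while Col4a5 and Col4a6 are dark in endoderm, Col2a1 and Col9a3 are brighter there, and Col1a1 is darkest there.

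Each pair of groups was compared gene by gene by the quasi-likelihood test of edgeR, with p-values adjusted over all genes tested by the Benjamini-Hochberg method, and a gene was called at an adjusted p under 0.05. Between Foxa2+ CM and Foxa2- CM, 5 of 33 collagen genes were higher in Foxa2+ CM, where 3.81% of all 15284 genes were called higher, and 5 were lower, where 2.66% of all genes were. That count of 10 was 5 without Foxa2+ CM 1, 5 without Foxa2+ CM 2, 5 without Foxa2- CM 1 and 4 without Foxa2- CM 2, while the calls over all genes went from 990 to 412, 234, 414 and 239 in the same order. It was 20 when the CM samples numbered 3, highest for haemato-endothelial markers, were left out of both groups, a setting in which 2632 of all 15093 genes were called. In endoderm, 5 of 35 collagen genes were higher than in Foxa2+ CM (18.3% of all 16180 genes) and 11 were lower (16.7%). Against Foxa2- CM, 4 were higher in endoderm (16.1% of all genes) and 14 lower (14.0%), a total of 18 that was 9 without Endoderm 1 (4875 and 3015 of all genes). Haematopoietic mesoderm had 2 collagen genes higher than Foxa2+ CM (11.6% of all genes) and 9 lower (11.2%), a total of 11 that was 7 without Foxa2+ CM 1 and 7 without Foxa2+ CM 2 (3685, 2352 and 2320 of all genes). Against Foxa2- CM it had 3 higher (11.3%) and 11 lower (10.3%), a total of 14 that was 9 without Foxa2- CM 1 (3492 and 2140 of all genes). Between the outer pair, 9 collagen genes were higher in endoderm (16.4%) and 10 higher in haematopoietic mesoderm (16.2%). The share of collagen genes called lower was thus 31.4% and 40.0% in endoderm against the CM groups and 25.7% and 31.4% in haematopoietic mesoderm, while the shares called higher stayed below those of all genes. These comparisons share samples, so their counts are not independent. In all, 28 of the 35 tested genes were called in at least 1 comparison. The matching share of all genes was not counted, and endoderm against Foxa2+ CM alone called 5660 of 16180 genes. That number therefore says nothing particular to collagen genes.

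The type IV chains are the first group. Col4a1 and Col4a2 lie head to head on mouse chromosome 8 (GRCm38; Col4a1 at 11198423 to 11312826 on the minus strand, Col4a2 at 11312805 to 11449287 on the plus strand), so that their first exons overlap by 22 bases. Col4a5 and Col4a6 form a similar pair on chromosome X, with 1308 bases between their starts. The 4 promoter windows are shown because the chains of each pair are divergently transcribed and their levels are compared below. Each is 300 bases (250 before the start and 50 after it) on GRCm38.p6 from RefSeq, written 5′ to 3′ on the gene's own strand, with matches on either strand to CCAAT, to the GC box core GGGCGG and to the TATA box core TATAAA in capitals. The windows are chr8:11312777-11313076 (minus), chr8:11312555-11312854 (plus), chrX:141475169-141475468 (plus) and chrX:141474027-141474326 (minus).
Col4a1: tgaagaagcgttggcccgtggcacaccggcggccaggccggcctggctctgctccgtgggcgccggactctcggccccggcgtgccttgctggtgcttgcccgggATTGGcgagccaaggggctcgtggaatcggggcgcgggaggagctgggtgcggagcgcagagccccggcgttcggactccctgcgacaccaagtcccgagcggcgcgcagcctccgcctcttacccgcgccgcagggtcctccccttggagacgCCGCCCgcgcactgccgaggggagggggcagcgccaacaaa
Col4a2: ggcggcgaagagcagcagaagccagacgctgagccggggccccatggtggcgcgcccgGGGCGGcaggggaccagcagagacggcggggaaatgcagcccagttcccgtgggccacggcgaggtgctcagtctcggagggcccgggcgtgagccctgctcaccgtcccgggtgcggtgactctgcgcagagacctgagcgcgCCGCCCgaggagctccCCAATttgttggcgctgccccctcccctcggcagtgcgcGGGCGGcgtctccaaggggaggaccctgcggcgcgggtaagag
Col4a5: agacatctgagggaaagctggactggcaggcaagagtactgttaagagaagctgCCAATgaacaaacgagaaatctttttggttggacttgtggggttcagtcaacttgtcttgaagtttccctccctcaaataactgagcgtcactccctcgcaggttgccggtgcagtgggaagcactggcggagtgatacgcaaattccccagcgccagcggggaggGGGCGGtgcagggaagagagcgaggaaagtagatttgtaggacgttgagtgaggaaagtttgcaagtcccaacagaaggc
Col4a6: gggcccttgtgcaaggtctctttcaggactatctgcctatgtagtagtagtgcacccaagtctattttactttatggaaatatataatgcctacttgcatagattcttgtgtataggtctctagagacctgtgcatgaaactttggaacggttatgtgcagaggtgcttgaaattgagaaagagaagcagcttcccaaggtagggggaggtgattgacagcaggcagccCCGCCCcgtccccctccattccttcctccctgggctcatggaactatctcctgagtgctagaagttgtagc

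The Col4a1 and Col4a2 windows share 78 bases and are 74.0% and 73.7% G or C, against 52.7% for Col4a5 and 48.3% for Col4a6. CCAAT occurred in 3 of the 4 windows and in 37.4% of all 32851 RefSeq windows, and GGGCGG in all 4 and in 35.7%. One GGGCGG match lies in the bases that Col4a1 and Col4a2 share, and no matches overlap each other within a window. TATAAA occurred in none of the 4 and in 13.6% of all windows. The forkhead-type word TGTTTAC and its variant TATTTAC, also searched on both strands, occurred in 1 collagen window each (Col6a1 and Col8a1) of 38 windows for 35 collagen genes, and in 3.65% and 3.04% of all windows. These are matches of letters only.

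Col4a1, a chain of almost all basement membranes, was at 554, 511 and 504 CPM in Foxa2+ CM, at 397, 455 and 477 CPM in Foxa2- CM, 237 and 447 CPM in endoderm, and 603 and 707 CPM in haematopoietic mesoderm. Its partner Col4a2 was at 390, 386 and 387 CPM in Foxa2+ CM, at 262, 298 and 358 CPM in Foxa2- CM, 81 and 216 CPM in endoderm, and 476 and 544 CPM in haematopoietic mesoderm. Both were lowest in Endoderm 1 and highest in the haematopoietic mesoderm samples, which also had the highest sums of haemato-endothelial and of visceral and parietal endoderm markers. The second sum was mostly Sox7, which endothelial cells also express, and the part of either sum was not tested. Col4a2 was lower in endoderm than in Foxa2+ CM (log2 fold change -1.38 ± 0.32 (SE), adjusted p = 0.00917), in Foxa2- CM (-1.04 ± 0.32, adjusted p = 0.0358) and in haematopoietic mesoderm (-1.78 ± 0.35, adjusted p = 0.00385). The call against Foxa2- CM was lost without Foxa2- CM 2 (-1.09, adjusted p = 0.064), without Foxa2- CM 3 (-0.91, adjusted p = 0.0843) and without Endoderm 1 (-0.53, adjusted p = 0.0742). Fits of only the 2 groups compared gave adjusted p = 0.0709 for Col4a2 against Foxa2- CM and 0.057 against haematopoietic mesoderm. Col4a1 was called lower in endoderm only against haematopoietic mesoderm (-0.94 ± 0.24, adjusted p = 0.0132, and -0.82, adjusted p = 0.0582, without Haematopoietic mesoderm 2), and adjusted p was 0.101 with only those 2 groups in the fit. Against Foxa2+ CM its difference was -0.61 ± 0.22 (adjusted p = 0.0536) and against Foxa2- CM -0.37 ± 0.22 (adjusted p = 0.223); without Endoderm 2 these were -1.16 (adjusted p = 0.00101) and -0.91 (adjusted p = 0.0034), and DESeq2 gave -0.62 (adjusted p = 0.0139) against Foxa2+ CM. Between haematopoietic mesoderm and the CM groups neither chain was called (0.33 to 0.74, adjusted p = 0.0884 to 0.391), though with only haematopoietic mesoderm and Foxa2- CM in the fit both were (0.56, adjusted p = 0.0307, for Col4a1 and 0.74, adjusted p = 0.0244, for Col4a2), as was Col4a2 with only haematopoietic mesoderm and Foxa2+ CM (0.4, adjusted p = 0.019). Neither chain was called between the CM groups, at 0.24 ± 0.09 for Col4a1 (adjusted p = 0.192) and 0.34 ± 0.11 for Col4a2 (adjusted p = 0.135), although no sample of Foxa2- CM reached the lowest of Foxa2+ CM. Without Foxa2- CM 3, Col4a2 was called (0.48, adjusted p = 0.00626), as it was by DESeq2 (0.34, adjusted p = 0.037). It was also called with a block on replicate number (0.36, adjusted p = 0.0229) and with the CM samples numbered 3 left out of both groups (0.49, adjusted p = 0.000747).

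The ratio of Col4a1 to Col4a2, each per exonic kilobase, lay between 1.15 and 1.35 in the 6 CM samples and at 1.12 and 1.15 in haematopoietic mesoderm. In endoderm it was 2.6 and 1.83, above all other samples. Because duplicate reads were removed, a base can give at most 2 counts, and Col4a1 reached 1.29 counts per exonic base. The higher levels of this pair may therefore already be compressed. The size of that effect on their levels, differences, shares and ratios was not tested.

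Col4a5 and Col4a6, the X-linked pair, varied more. Col4a5 was at 180, 213 and 229 CPM in Foxa2+ CM, at 71.7, 83.2 and 140 CPM in Foxa2- CM, 15.3 and 15.6 CPM in endoderm, and 26.1 and 109 CPM in haematopoietic mesoderm. Col4a6 was at 162, 193 and 200 CPM in Foxa2+ CM, at 75.5, 84.9 and 126 CPM in Foxa2- CM, 9.78 and 9.87 CPM in endoderm, and 32.1 and 77 CPM in haematopoietic mesoderm. All Foxa2+ CM samples stood above all others for both chains, and both endoderm samples below all others. Foxa2+ CM exceeded Foxa2- CM 2.1-fold for Col4a5 (log2 fold change 1.07 ± 0.24, adjusted p = 0.0367) and 1.93-fold for Col4a6 (0.95 ± 0.19, adjusted p = 0.0253). Each of these calls was lost when any 1 of Foxa2+ CM 1, Foxa2+ CM 2, Foxa2- CM 1 or Foxa2- CM 2 was left out, and that for Col4a5 also without Foxa2+ CM 3. In those fits Col4a5 differed by 0.87 to 1.16 (adjusted p = 0.0717 to 0.165) and Col4a6 by 0.78 to 1.03 (adjusted p = 0.0559 to 0.127). With all 10 samples in 1 model neither was called (adjusted p = 0.282 and 0.147). With the CM samples numbered 3 left out of both groups, both were. Col4a5 then differed by 1.36 (adjusted p = 6.29e-25) and Col4a6 by 1.16 (adjusted p = 1.08e-20), in a fit that called 2632 of all 15093 genes.

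Endoderm was 18.8-fold below Foxa2+ CM for Col4a6 (-4.23 ± 0.41, adjusted p = 7.33e-05) and 13.4-fold for Col4a5 (-3.75 ± 0.58, adjusted p = 0.00103), both called without any 1 sample. Against Foxa2- CM the differences were -3.28 ± 0.40 for Col4a6 (adjusted p = 0.000317) and -2.67 ± 0.56 for Col4a5 (adjusted p = 0.00623), the latter lost without Endoderm 1 (-2.69, adjusted p = 0.0557) or Endoderm 2 (-2.7, adjusted p = 0.0526). Haematopoietic mesoderm was below Foxa2+ CM for Col4a6 (-1.77 ± 0.34, adjusted p = 0.00574) and Col4a5 (-1.63 ± 0.50, adjusted p = 0.0427). The Col4a5 call did not hold without Haematopoietic mesoderm 1 (-0.93, adjusted p = 0.0725), nor without Foxa2+ CM 1, 2 or 3 (adjusted p = 0.0787 to 0.0961). Against Foxa2- CM neither was called (-0.55 ± 0.48 for Col4a5 and -0.82 ± 0.33 for Col4a6, adjusted p = 0.474 and 0.111), and without Haematopoietic mesoderm 2 both were (-1.94, adjusted p = 0.00993, and -1.6, adjusted p = 0.0077). Between the outer pair, endoderm was lower for Col4a6 (-2.46 ± 0.41, adjusted p = 0.00165) and Col4a5 (-2.12 ± 0.58, adjusted p = 0.0203), the second lost without Endoderm 1 (-2.13, adjusted p = 0.101), Endoderm 2 (-2.14, adjusted p = 0.105) or Haematopoietic mesoderm 2 (-0.76, adjusted p = 0.193), and in a fit of only those groups (adjusted p = 0.0973).

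**Figure D3:**
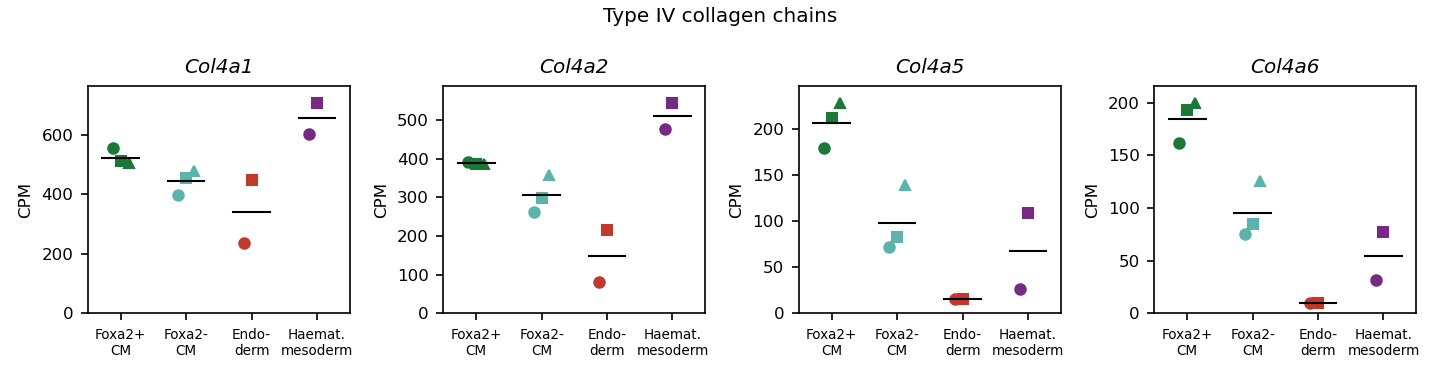
Level in CPM (y axis, from 0) of the 4 type IV chains in each group (x axis), with 1 point for each sample (circle, square and triangle for samples 1, 2 and 3) and a bar at the group mean. Col4a5 and Col4a6 are highest in the 3 Foxa2+ CM samples and lowest in the 2 endoderm samples, whereas Col4a1 and Col4a2 are highest in haematopoietic mesoderm.

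The fibrillar collagens held opposite patterns. Col1a1, the main chain of type I collagen, was at 22.7, 30.5 and 99.4 CPM in Foxa2+ CM, at 79.4, 103 and 270 CPM in Foxa2- CM, 2.42 and 1.59 CPM in endoderm, and 10.1 and 23.2 CPM in haematopoietic mesoderm. Its partner Col1a2 was at 21.6, 30.6 and 32.0 CPM in Foxa2+ CM, at 16.5, 23.1 and 31.0 CPM in Foxa2- CM, 12.9 and 22.8 CPM in endoderm, and 10.4 and 39.3 CPM in haematopoietic mesoderm. Col1a1 was highest in Foxa2- CM 3 and, within its group, in Foxa2+ CM 3. These are the CM samples with the most haemato-endothelial signal of their groups. Haematopoietic mesoderm had more of that signal and a lower Col1a1 level than either sample. The part of that signal in the Col1a1 levels was not tested. The CM groups overlapped for Col1a1, and the difference between them was not called (-1.57 ± 0.63, adjusted p = 0.22). With a block on replicate number it was called (-1.64, adjusted p = 2.36e-07), as were 2556 of all 15284 genes, but the labels name no shared batch. Without Foxa2+ CM 3 it was -2.5 (adjusted p = 0.037), and with the CM samples numbered 3 left out of both groups -1.75 (adjusted p = 1.07e-30). That last fit called 2632 of all 15093 genes. Its p-value measures only the spread between the few samples left, which may be technical.

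Endoderm was lower for Col1a1 than Foxa2- CM, 75.6-fold (-6.24 ± 1.03, adjusted p = 0.00174), and than Foxa2+ CM, 25.6-fold (-4.68 ± 1.01, adjusted p = 0.00601, which became 0.0509 without Endoderm 1, at -5.04, and 0.0587 without Endoderm 2, at -4.42). Haematopoietic mesoderm was lower than Foxa2- CM (-3.19 ± 0.79, adjusted p = 0.0192), a call lost without Haematopoietic mesoderm 1 (-2.7, adjusted p = 0.0888). It was not called against Foxa2+ CM (-1.63 ± 0.75, adjusted p = 0.152), nor was endoderm against it (-3.05 ± 1.07, adjusted p = 0.055), although DESeq2 called the latter (adjusted p = 0.0062), as did a fit without a filter on low counts (adjusted p = 0.0245). Col1a2 was called in no comparison, with differences from -0.65 to 0.25, although with the CM samples numbered 3 left out of both CM groups it differed by 0.43 (adjusted p = 0.0207). Per exonic kilobase, the ratio of Col1a1 to Col1a2 was 2.0, 1.89 and 5.89 in Foxa2+ CM, 9.13, 8.44 and 16.5 in Foxa2- CM, 0.357 and 0.132 in endoderm, and 1.84 and 1.12 in haematopoietic mesoderm. All Foxa2- CM samples were above and both endoderm samples below every other sample. On the longest transcript the ratios ran from 0.0628 to 7.86, because the exon union of Col1a2 (12426 bases) is far longer than its longest transcript (5348 bases). Ratios were not tested.

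Col2a1, the collagen of cartilage and of the notochord sheath, went the other way, at 71.5 and 207 CPM in endoderm, 14.0, 16.2 and 22.4 CPM in Foxa2+ CM, at 25.9, 21.6 and 27.8 CPM in Foxa2- CM, and 7.34 and 2.84 CPM in haematopoietic mesoderm. Both endoderm samples were above all others. The difference was 2.99 ± 0.44 from Foxa2+ CM (adjusted p = 0.000766), 2.47 ± 0.43 from Foxa2- CM (adjusted p = 0.00236) and 4.75 ± 0.57 from haematopoietic mesoderm (adjusted p = 0.000284), each called without any 1 sample. The endoderm samples are also those with the highest sums of node and notochord markers, Chrd and Foxj1 among them. That list also holds Foxa2, on whose reporter endoderm was sorted. The same samples had the highest sums of undifferentiated mESC markers (291 and 282 CPM). Their sums of paraxial mesoderm and sclerotome markers were the lowest (13.8 and 20.2 CPM). The part of these lists in this result was not tested. Haematopoietic mesoderm was below Foxa2- CM (-2.28 ± 0.51, adjusted p = 0.0124) and Foxa2+ CM (-1.76 ± 0.51, adjusted p = 0.034). Without Haematopoietic mesoderm 2 both were lost (-1.8, adjusted p = 0.0727, and -1.29, adjusted p = 0.167), and the second also without Foxa2+ CM 1, 2 or 3 (-1.93 to -1.54, adjusted p = 0.0529 to 0.083). The CM groups were not called apart (-0.51 ± 0.19, adjusted p = 0.174, and -0.73, adjusted p = 0.0355, without Foxa2+ CM 3). They were with a block on replicate number (-0.52, adjusted p = 0.0078) and with the CM samples numbered 3 left out of both groups (-0.64, adjusted p = 0.000336).

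Type V collagen helps to start fibrils, and its chains differed from each other. Col5a1 was at 67.6 to 84.2 CPM in Foxa2+ CM and at 78.4 to 102 CPM in Foxa2- CM, at 30.6 and 50.2 CPM in endoderm and at 39.7 and 79.9 CPM in haematopoietic mesoderm. Col5a2 was at 15.6, 20.8 and 23.0 CPM in Foxa2+ CM, at 13.9, 14.4 and 22.9 CPM in Foxa2- CM, 6.06 and 7.95 CPM in endoderm, and 42.5 and 32.7 CPM in haematopoietic mesoderm. Haematopoietic mesoderm thus held the 2 highest Col5a2 values. It was above Foxa2+ CM by 0.93 ± 0.25 (adjusted p = 0.0283) and above Foxa2- CM by 1.14 ± 0.25 (adjusted p = 0.0123). Each of these calls was lost without CM sample 1 or 2 of the group compared or without Haematopoietic mesoderm 1, with differences of 0.72 to 1.00 and adjusted p = 0.0588 to 0.127. Endoderm was below haematopoietic mesoderm for Col5a2 (-2.42 ± 0.31, adjusted p = 0.000386), and below Foxa2+ CM (-1.5 ± 0.28, adjusted p = 0.00324) and Foxa2- CM (-1.28 ± 0.28, adjusted p = 0.0082, and -1.13, adjusted p = 0.0803, without Endoderm 1). For Col5a1 endoderm was below Foxa2+ CM (-0.95 ± 0.30, adjusted p = 0.0321) and Foxa2- CM (-1.12 ± 0.30, adjusted p = 0.0189). Without Endoderm 1 these were -0.68 (adjusted p = 0.223) and -0.84 (adjusted p = 0.152), and the first was also lost without Foxa2+ CM 2 (-0.9, adjusted p = 0.0828) or 3 (-0.91, adjusted p = 0.0744). Col5a1 was not called between haematopoietic mesoderm and any group, but the 2 samples of that group lay apart. Without Haematopoietic mesoderm 2 it was lower there than in Foxa2+ CM (-1.01, adjusted p = 0.0341) and Foxa2- CM (-1.17, adjusted p = 0.0216), and without Haematopoietic mesoderm 1 endoderm was below it (-0.98, adjusted p = 0.0176). Neither type V chain was called between the CM groups.

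Of the remaining fibrillar genes, Col11a1, a chain of the type XI fibrils of cartilage, was at 22.3, 26.4 and 17.4 CPM in Foxa2+ CM against 11.8, 9.84 and 11.1 CPM in Foxa2- CM, 2.02-fold higher (1.01 ± 0.17, adjusted p = 0.015). The call was lost without Foxa2+ CM 1, Foxa2+ CM 2, Foxa2- CM 1 or Foxa2- CM 2 (0.84 to 1.05, adjusted p = 0.054 to 0.0856). Col11a1 was at 12.3 and 18.9 CPM in endoderm and 5.77 and 5.99 CPM in haematopoietic mesoderm, which lay below all other samples and below Foxa2+ CM by test (-1.91 ± 0.25, adjusted p = 0.000993). Col24a1, a fibrillar collagen of developing bone, was at 1.68, 2.78 and 2.82 CPM in Foxa2+ CM and at 6.5, 7.22 and 8.46 CPM in Foxa2- CM (-1.59 ± 0.24, adjusted p = 0.00973), a call lost without Foxa2- CM 2 (-1.62, adjusted p = 0.0528) and with all 10 samples in 1 model (-1.6, adjusted p = 0.153). In endoderm it was at 0.652 and 1.0 CPM, below Foxa2- CM (-3.14 ± 0.66, adjusted p = 0.00627, and -2.9, adjusted p = 0.0598, without Endoderm 1). Col27a1 ranged from 94.1 to 115 CPM over the 6 CM samples, was at 67.6 and 60.6 CPM in haematopoietic mesoderm and at 21.2 and 29.3 CPM in endoderm, and was called in all 5 comparisons other than that of the CM groups. Col11a2 stayed between 10.6 and 16.5 CPM in all samples and was called in no comparison.

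The FACITs held the 2 largest differences between the CM groups, with 2 of 9 higher in Foxa2+ CM (3.81% of all genes) and 3 lower (2.66%). Col12a1, which coats type I fibrils, was at 28.5, 39.9 and 36.1 CPM in Foxa2+ CM and at 4.15, 4.52 and 8.92 CPM in Foxa2- CM, a 5.87-fold difference (2.55 ± 0.29, adjusted p = 0.00439). The related Col14a1 was at 95.4, 94.4 and 80.3 CPM in Foxa2+ CM and at 20, 17.9 and 21.8 CPM in Foxa2- CM, a 4.51-fold difference (2.17 ± 0.10, adjusted p = 0.000507). Neither gene overlapped between the CM groups. Col9a1, a chain of the type IX collagen that covers cartilage fibrils, was at 1.9, 2.49 and 3.67 CPM in Foxa2+ CM and at 17.9, 22.9 and 32.8 CPM in Foxa2- CM, 9.04-fold lower in Foxa2+ CM (-3.18 ± 0.31, adjusted p = 0.00245). All 3 calls held in each of the 6 fits that left out 1 sample, but with all 10 samples in 1 model Col12a1 was not called (2.56, adjusted p = 0.144). Col9a2 was lower in Foxa2+ CM (0.731, 0.521 and 0.62 CPM against 1.61, 1.59 and 1.52 CPM, -1.33 ± 0.25, adjusted p = 0.0201), as was Col22a1, known from tissue junctions (1.9, 1.79 and 1.07 CPM against 3.96, 3.65 and 3.33 CPM, -1.20 ± 0.25, adjusted p = 0.0327). DESeq2 gave adjusted p = 0.0973 for Col9a2. Both calls were lost in 5 of the 6 fits without 1 sample and kept only without Foxa2- CM 3. In those 5 fits Col9a2 differed by -1.45 to -1.23 (adjusted p = 0.0544 to 0.114) and Col22a1 by -1.35 to -0.97 (adjusted p = 0.0575 to 0.118). Col22a1 was not called with all 10 samples in 1 model either (adjusted p = 0.235).

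The third type IX chain, Col9a3, was at 19.3 to 21 CPM in all 6 CM samples, with a difference of -0.05 ± 0.10 (adjusted p = 0.896). The ratio of Col9a1 to Col9a3 per exonic kilobase was 0.0735, 0.0982 and 0.132 in Foxa2+ CM and 0.658 or more in each Foxa2- CM sample. Of the Col9a3 exons, 6.07% overlap the gene Tcfl5 on the other strand, and the kit does not mark strand. Outside the CM groups, Col9a3 was at 27.3 and 63.5 CPM in endoderm and 5.9 and 7.01 CPM in haematopoietic mesoderm. Endoderm exceeded haematopoietic mesoderm (2.82 ± 0.33, adjusted p = 0.000271), Foxa2+ CM (1.18 ± 0.27, adjusted p = 0.00872) and Foxa2- CM (1.14 ± 0.27, adjusted p = 0.0125), the CM calls being lost without Endoderm 2 (0.43, adjusted p = 0.091, and 0.39, adjusted p = 0.134). Haematopoietic mesoderm was below Foxa2+ CM (-1.63 ± 0.31, adjusted p = 0.00538) and Foxa2- CM (-1.68 ± 0.31, adjusted p = 0.00491).

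Col9a2 was at 5.5 and 4.77 CPM in endoderm and 0.565 and 0.473 CPM in haematopoietic mesoderm. Its level in endoderm was 8.18-fold that of Foxa2+ CM (3.03 ± 0.25, adjusted p = 3.03e-05), 3.25-fold that of Foxa2- CM (1.70 ± 0.23, adjusted p = 0.000578) and 9.69-fold that of haematopoietic mesoderm (3.28 ± 0.30, adjusted p = 6.18e-05), all called without any 1 sample. Col22a1 was likewise highest in endoderm, at 10.2 and 16.8 CPM, with 3.76 and 1.02 CPM in haematopoietic mesoderm. It exceeded Foxa2+ CM by 3.09 ± 0.46 (adjusted p = 0.00084), haematopoietic mesoderm by 2.47 ± 0.51 (adjusted p = 0.00536, and 0.0698 with only those 2 groups in the fit) and Foxa2- CM by 1.89 ± 0.44 (adjusted p = 0.0102, and 1.47, adjusted p = 0.088, without Endoderm 2). Col9a1 was at 10.4 and 4.1 CPM in endoderm and 4.27 and 1.73 CPM in haematopoietic mesoderm. Both were called below Foxa2- CM, haematopoietic mesoderm at -3.01 ± 0.53 (adjusted p = 0.00413) and endoderm at -1.76 ± 0.49 (adjusted p = 0.0244). Endoderm was above Foxa2+ CM by 1.42 ± 0.49 (adjusted p = 0.0493), a call lost under median-ratio size factors (adjusted p = 0.0531), with a filter at a mean of 50 counts (adjusted p = 0.0555), and without Endoderm 1 (0.56, adjusted p = 0.531), Foxa2+ CM 1 (1.19, adjusted p = 0.144) or Foxa2+ CM 2 (1.36, adjusted p = 0.123). Col9a1 in endoderm thus lay between the CM groups.

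Col12a1 was nearly absent from endoderm, at 0.373 and 0.418 CPM, and split haematopoietic mesoderm, at 1.69 and 30.9 CPM. Endoderm was below Foxa2+ CM by test (-6.43 ± 1.26, adjusted p = 0.00378), called without any 1 sample. Against Foxa2- CM the call (-3.87 ± 1.28, adjusted p = 0.0468) was lost in each of 5 fits without 1 sample (-4.1 to -3.42, adjusted p = 0.0678 to 0.195). Against haematopoietic mesoderm (-5.32 ± 1.29, adjusted p = 0.0114) it was lost without Endoderm 1 (-5.26, adjusted p = 0.0755), Endoderm 2 (-5.41, adjusted p = 0.0785) or Haematopoietic mesoderm 2 (-2.07, adjusted p = 0.0617). Col14a1 was at 17.0 and 44.8 CPM in endoderm and 59.0 and 19.6 CPM in haematopoietic mesoderm. Col16a1 was at 2.89 and 0.788 CPM in haematopoietic mesoderm and between 4.31 and 6.88 CPM in all other samples. Its difference from Foxa2- CM was -1.66 ± 0.43 (adjusted p = 0.0232), lost without Foxa2- CM 1 (-1.73, adjusted p = 0.0546), Foxa2- CM 3 (-1.54, adjusted p = 0.0502) or Haematopoietic mesoderm 2 (-1.07, adjusted p = 0.0516).

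**Figure D4:**
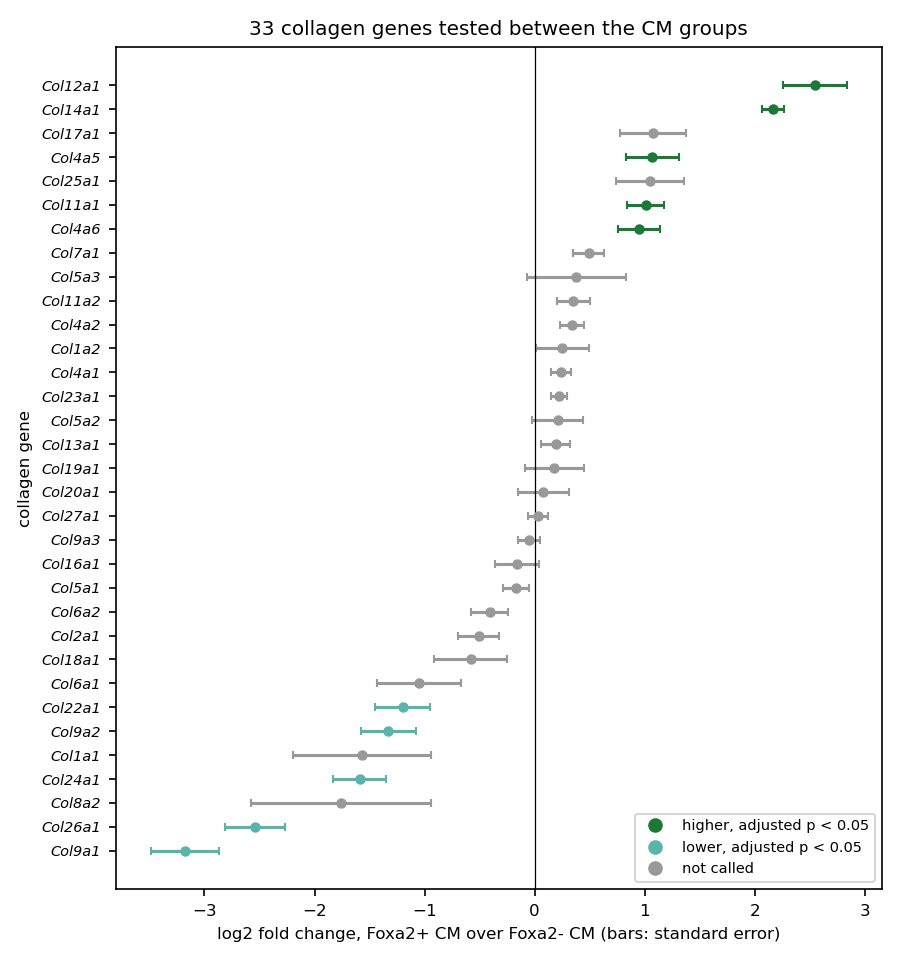
Log2 fold change of Foxa2+ CM over Foxa2- CM (x axis, bars for the standard error) for the 33 collagen genes tested in the 6 CM samples (y axis, ordered by fold change), coloured by whether the adjusted p passed. Col12a1 and Col14a1 stand apart at the top, at 2.55 and 2.17, and Col26a1 and Col9a1 at the bottom, at -2.54 and -3.18, while Col1a1 and Col8a2 have wide bars and were not called.

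Among the other types, Col18a1, a multiplexin of basement membranes and the source of endostatin, was at 59.2, 67.2 and 98.1 CPM in Foxa2+ CM, at 72.4, 88.0 and 175 CPM in Foxa2- CM, 131 and 132 CPM in endoderm, and 265 and 308 CPM in haematopoietic mesoderm. The haematopoietic mesoderm samples were above all others, and the CM samples numbered 3 were the highest of their groups. The same samples had the highest sums, overall or within their CM group, of haemato-endothelial and of visceral and parietal endoderm markers. In haematopoietic mesoderm the second sum was mostly Sox7, and the part of either sum in the result was not tested. Haematopoietic mesoderm exceeded Foxa2+ CM 3.83-fold (1.94 ± 0.33, adjusted p = 0.00343) and Foxa2- CM 2.56-fold (1.36 ± 0.33, adjusted p = 0.0176). The second call was lost without Foxa2- CM 1 (1.09, adjusted p = 0.0642), Foxa2- CM 2 (1.18, adjusted p = 0.078) or Haematopoietic mesoderm 2 (1.22, adjusted p = 0.0884), and adjusted p was 0.0566 with only those 2 groups in the fit.

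Col26a1, a short secreted collagen, was at 1.75, 1.97 and 2.82 CPM in Foxa2+ CM and at 16.0, 9.37 and 13.1 CPM in Foxa2- CM, 5.83-fold lower in Foxa2+ CM (-2.54 ± 0.27, adjusted p = 0.00319), and was called without any 1 of the 6 samples. With all 10 samples in 1 model its adjusted p was 0.0704. It was at 2.61 and 9.03 CPM in endoderm and 6.02 and 1.1 CPM in haematopoietic mesoderm. Col8a2, a short-chain collagen of endothelial basement membranes, was at 26.8 CPM in Foxa2- CM 3 and at 1.83 to 5.98 CPM in the other CM samples, at 6.24 and 17.6 CPM in endoderm, and at 0.439 and 1.73 CPM in haematopoietic mesoderm. It was called between endoderm and haematopoietic mesoderm (3.5 ± 1.18, adjusted p = 0.0478), and that call was lost without Endoderm 1 (4.04, adjusted p = 0.0592), Endoderm 2 (2.56, adjusted p = 0.227), Haematopoietic mesoderm 1 (2.78, adjusted p = 0.183) or Haematopoietic mesoderm 2 (4.74, adjusted p = 0.0815).

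**Figure D5:**
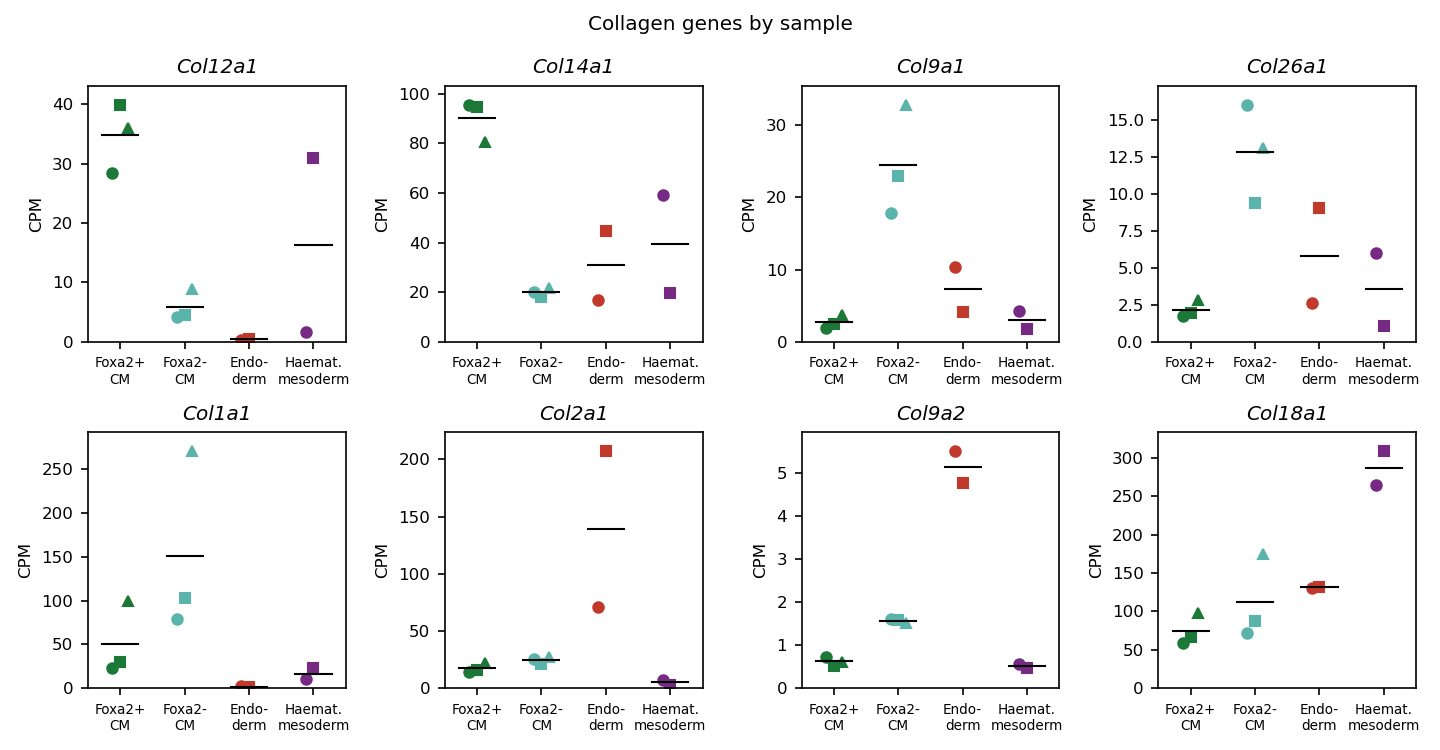
Level in CPM (y axis, from 0) of 8 collagen genes in each group (x axis), with 1 point for each sample (circle, square and triangle for samples 1, 2 and 3) and a bar at the group mean. Col12a1 and Col14a1 separate the CM groups upward and Col9a1 and Col26a1 downward in Foxa2+ CM, Col1a1 is pulled up by the samples numbered 3, Col2a1 and Col9a2 are highest in endoderm, and Col18a1 is highest in haematopoietic mesoderm.

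The transmembrane collagens Col13a1 and Col23a1 were expressed in all groups and neither was called between the CM groups. Col13a1, found at cell adhesions, was at 40.9 to 59.4 CPM in the CM samples, 15.7 and 20 CPM in endoderm, and 111 and 44.8 CPM in haematopoietic mesoderm. Endoderm was below haematopoietic mesoderm (-2.12 ± 0.37, adjusted p = 0.00198), called without any 1 sample. Col23a1 was at 62.2 to 78.6 CPM in the CM samples, 30.2 and 78.8 CPM in endoderm, and 28.9 and 16.5 CPM in haematopoietic mesoderm, where it was below Foxa2+ CM (-1.67 ± 0.36, adjusted p = 0.00961, and -1.36, adjusted p = 0.0503, without Haematopoietic mesoderm 2). Col25a1 was at 0.559 and 0.669 CPM in endoderm and at 1.49 to 6.02 CPM elsewhere, and endoderm was below haematopoietic mesoderm (-2.8 ± 0.54, adjusted p = 0.00358) and Foxa2+ CM (-2.73 ± 0.52, adjusted p = 0.00309). Col7a1, which anchors epithelium to the tissue beneath, was at 12.5 and 12.3 CPM in haematopoietic mesoderm and at 19.9 to 45 CPM in all other samples. It was called lower in haematopoietic mesoderm than in each other group. Of the type VI chains, Col6a1 did not exceed 6.49 CPM and Col6a2 did not exceed 6.77 CPM in any sample. Col6a3, the third chain of the classical type VI molecule, stayed at or below 0.79 CPM (at most 14 counts) and was called lower than in Foxa2- CM in endoderm (adjusted p = 0.0484) and in haematopoietic mesoderm (adjusted p = 0.0239). Col6a5 was called higher in haematopoietic mesoderm than in Foxa2- CM (adjusted p = 0.0105), but its counts were 53 and 5 there and 1, 0 and 2 in Foxa2- CM, so 1 sample carried the level. No fold is given for these low genes.

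The genes that modify, fold, cleave, crosslink, bind and break down collagen were followed as 6 lists. Of 21 genes for hydroxylation, folding and secretion, 20 were tested between the CM groups, with 2 higher in Foxa2+ CM (3.81% of all genes) and 2 lower (2.66%), at a median difference of 0.1. The prolyl hydroxylases P3h2 (-1.28 ± 0.19, adjusted p = 0.00988) and P4ha2 (-0.67 ± 0.13, adjusted p = 0.023) were lower, and P3h1 (0.33 ± 0.07, adjusted p = 0.0263) and the lysyl hydroxylase Plod1 (0.27 ± 0.06, adjusted p = 0.0422) were higher. P3h2 was at 7.97, 11.8 and 14.0 CPM in Foxa2+ CM and at 25.7, 28 and 28.7 CPM in Foxa2- CM. In endoderm 10 of 21 were lower (16.7% of all genes) and 1 higher (18.3%) than in Foxa2+ CM, with a median of -0.37, and 7 were lower (14.0%) and 1 higher (16.1%) than in Foxa2- CM, with a median of -0.24. The higher gene was Fkbp14, a folding enzyme of the endoplasmic reticulum, in both (1.47 ± 0.15, adjusted p = 0.000102, and 1.83 ± 0.15, adjusted p = 3.65e-05). Serpinh1, the collagen chaperone Hsp47, was at 175 to 232 CPM in all samples and was not called in any comparison. Haematopoietic mesoderm had 2 higher (11.6% of all genes) and 3 lower (11.2%) against Foxa2+ CM, and 2 higher (11.3%) and 2 lower (10.3%) against Foxa2- CM, counts near those shares. Tmem38b, an ion channel of the endoplasmic reticulum, was higher in haematopoietic mesoderm, at 64.4 and 81.2 CPM against 11 to 21.9 CPM in the CM samples (2.21 ± 0.29, adjusted p = 0.00101, against Foxa2+ CM).

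None of the 7 tested genes of propeptide cleavage was called between the CM groups, while 5 were lower in endoderm than in Foxa2+ CM (16.7% of all genes) and 4 than in Foxa2- CM (14.0%). Adamts3, which cleaves procollagen, was lower in endoderm (-2.88 ± 0.16, adjusted p = 3.59e-06, against Foxa2+ CM), as was the enhancer Pcolce2 (-2.22 ± 0.23, adjusted p = 0.000106). In haematopoietic mesoderm 2 of the 7 were lower than in Foxa2+ CM (11.2% of all genes), and 3 were lower (10.3%) and 1 higher (11.3%) than in Foxa2- CM. None of the 4 tested crosslinking genes was called between the CM groups, 1 was lower in endoderm than in Foxa2+ CM (16.7% of all genes) and 1 than in Foxa2- CM (14.0%), and 2 were lower in haematopoietic mesoderm than in Foxa2+ CM (11.2%) and 1 than in Foxa2- CM (10.3%). Of 6 tested adhesion and uptake receptors, only the collagen receptor Ddr1 was called between the CM groups. It was lower in Foxa2+ CM than in Foxa2- CM (-1.12 ± 0.16, adjusted p = 0.00827), as were 2.66% of all genes. Ddr1 was at 84.9 and 93.3 CPM in endoderm and 6.78 and 5.91 CPM in haematopoietic mesoderm, above and below all CM samples (15.9 to 49.8 CPM). In endoderm 2 of the 6 receptors were higher and 2 lower than in Foxa2+ CM (18.3% and 16.7% of all genes), and 2 higher and 2 lower than in Foxa2- CM (16.1% and 14.0%). In haematopoietic mesoderm none was higher, and 2 were lower than in Foxa2+ CM (11.2%) and 3 than in Foxa2- CM (10.3%). Of 9 tested breakdown genes, only Mmp15 was called between the CM groups, lower in Foxa2+ CM (-0.77 ± 0.17, adjusted p = 0.0359), as were 2.66% of all genes. Mmp9, which cleaves type IV collagen, was lower in endoderm (-3.79 ± 0.47, adjusted p = 0.000305, against Foxa2+ CM). Of the 9, 3 were higher and 2 lower in endoderm than in Foxa2+ CM (18.3% and 16.7% of all genes), 3 were lower than in Foxa2- CM (14.0%), and 1 was lower in haematopoietic mesoderm than in Foxa2+ CM (11.2%) and 1 than in Foxa2- CM (10.3%). The 2 lower genes and these single genes are near the shares of all genes.

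Of the 10 basement membrane partners, 4 were higher and 6 lower in endoderm than in Foxa2+ CM (18.3% and 16.7% of all genes), and 4 were higher and 5 lower than in Foxa2- CM (16.1% and 14.0%). Lama1, a laminin chain of early embryonic basement membranes, was at 8.94 and 15.7 CPM in endoderm and at 52.1 to 119 CPM elsewhere (-3.06 ± 0.41, adjusted p = 0.000483, against Foxa2+ CM). Nid1, which links laminin to type IV collagen, was at 15.2 and 17.8 CPM in endoderm and at 63.2 to 158 CPM elsewhere (-2.61 ± 0.20, adjusted p = 1.81e-05). Lama5 (0.70 ± 0.13, adjusted p = 0.0033), Lamb1 (0.77 ± 0.14, adjusted p = 0.00242) and Lamc1 (0.63 ± 0.15, adjusted p = 0.00995), the chains of another laminin, were higher in endoderm than in Foxa2+ CM. Between the CM groups 1 partner was called, Nid2, at 222, 229 and 209 CPM in Foxa2+ CM and at 157, 154 and 150 CPM in Foxa2- CM (0.52 ± 0.06, adjusted p = 0.00348), where 3.81% of all genes were called higher in Foxa2+ CM. Haematopoietic mesoderm differed from Foxa2+ CM in 1 partner, Nid2 (-1.1 ± 0.15, adjusted p = 0.00127), and from Foxa2- CM in Nid2 (-0.59 ± 0.15, adjusted p = 0.022) and Nid1 (0.97 ± 0.16, adjusted p = 0.00342). Of all genes, 11.2% were lower than in Foxa2+ CM, and 10.3% were lower and 11.3% higher than in Foxa2- CM. These counts of the 10 partners are near those shares. Between endoderm and haematopoietic mesoderm 4 partners were higher and 5 lower in endoderm (16.4% and 16.2% of all genes).

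The genes most like Col4a1 over the 10 samples, of 16179 others, were Col4a2 (Pearson r = 0.969 on log2 CPM), Arhgap1 (0.9641) and Abhd16a (0.951). The genes most like Col1a1 were Fendrr (0.9925), Raet1d (0.9821) and Slc6a17 (0.9798). These are descriptions over samples of 4 cell types, and samples of a group are not independent points.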

How the data were processed

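RNAseq counts of 10 samples were used. Per the labels and methods, the authors prepared libraries with a TruSeq RNA kit, sequenced single-end reads of 50 nt and used STAR 2.5.0a for alignment to mm10. They then removed duplicates with Picard and counted reads per gene with HTSeq 0.6.0. That the libraries were unstranded was taken from the kit and is not stated there. The strand setting of the counting is not given in the sources used here. The deposited values are whole-number counts, not normalized, and 5 summary lines per table were left out. Of the uniquely aligned reads, 72.2% to 80.5% lay on genes. The floor of 3 counts covers counting error only.

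Identifiers were matched to GENCODE M21 (37607 of 38924 genes). The members and gene lists were chosen with earlier results of these data known. edgeR 4.0.16 (R 4.3.3) was run with TMM, filterByExpr and the quasi-likelihood test with Benjamini-Hochberg adjustment over all genes tested, on the 6 CM samples for the CM groups (15284 genes) and on all 10 samples for the other 5 comparisons (16180 genes). A gene was called at an adjusted p under 0.05, with no fold limit. The SE was taken as the size of the log2 fold change over the root of the F statistic. CPM used TMM-scaled totals, and exon length the union of exons. The steps were tested on simulated data.

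Sample values are given for genes with an average of at least 50 counts in a group. Of these, full statistics are given for at most 5 called genes with the largest change in each direction of a comparison, plus the type I, II, IV and V chains. List genes are those with the largest called changes, at most 5 a comparison. Other genes whose levels are given were named after their values were seen. Alternatives were size factors, filters, DESeq2 1.42.0, a fold limit of 2, other sample sets, a block on replicate number and leaving out each sample. No protein sequence was used here, and 9 collagen genes without a promoter window were not searched.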

Additional observations from a re-analysis of the deposited data

How the results depend on the processing

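The number of collagen genes called between the CM groups, 10, was 19 with a replicate block, 4 with all 10 samples in 1 model and 20 with the CM samples numbered 3 left out of both groups. Over all genes the 990 calls became 2556, 288 and 2632. The collagen count ranged from 4 to 12 when 1 sample was left out. Between endoderm and haematopoietic mesoderm, 19 genes became 12 with only the 2 groups compared in the fit, while all genes called went from 5276 to 2675. Leaving out 1 sample gave 9 to 15 for endoderm against Foxa2- CM, 7 to 13 for haematopoietic mesoderm against Foxa2+ CM and 9 to 14 against Foxa2- CM. The causes were not tested. All other counts of called genes stayed within 1.5 times the reported count under size factors, filters, DESeq2 and the fold limit.

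Same-numbered CM samples deviated together in pairs 1 and 3 (r = 0.447 and 0.539) and not in pair 2 (r = 0.075), and the labels name no shared batch, so the replicate block was not treated as a pairing. Of 88 named values, 63 were called, and 32 of these were called whichever sample was left out. Most named values were chosen because they were called, so the 63 follow in part from that choice. The matching shares of all genes were not counted, so these numbers say nothing particular to collagen genes. Signs turned only for values that were not called. With 1 sample left out, Col1a2 differed by -1.46 to 0.49 between haematopoietic mesoderm and Foxa2+ CM, by -1.2 to 0.74 against Foxa2- CM (-0.15 without Foxa2- CM 1) and by -1.14 to 0.78 between endoderm and haematopoietic mesoderm. Col5a1 differed by -1.01 to 0.03 between haematopoietic mesoderm and Foxa2+ CM and by -0.98 to 0.02 between endoderm and haematopoietic mesoderm, and Col4a5 by -1.94 to 0.15 between haematopoietic mesoderm and Foxa2- CM. Genes under 3 counts in all samples could not be compared at this depth.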
